A study of Mus musculus with 10 samples.

Results

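The let-7 and miR-98 guide strands are the 5p arms of the mouse let-7 family, which load into Argonaute proteins and carry the family's targeting seed. They were chosen by a rule on names, as every row whose name was let-7 with a letter and a 5p arm, together with miR-98-5p. Earlier results of these data were known at the choice. The rule found 9 of the 733 rows in the deposited table. All 9 passed the expression filter, among 177 miRNAs that were tested. RNA came from small extracellular vesicles, membrane particles that cells release, which were prepared from collagenase-digested heart tissue of male C57BL/6J mice. The HFD plus L-NAME group had 5 libraries, from mice given a diet with 60% fat and the nitric oxide synthase inhibitor L-NAME at 0.5 g/L in drinking water. Per the labels these mice were 8 weeks old when the regimen began and stayed on it for 12 weeks, which the series uses to model heart failure with a preserved ejection fraction. The control group had 5 libraries, from male mice fed standard chow, for which the labels used here give no age or duration. No transgene or mutation is given for either group, and the vesicles can come from any cell of the digested heart.

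let-7 is among the most conserved animal miRNA families. Its level is low in embryonic and stem cells, where the RNA-binding proteins LIN28A and LIN28B block maturation of its precursors, and high in differentiated tissues such as adult heart. Its known targets include the messages of the growth regulators Hmga2, Lin28a and the Ras genes, and in mice the family restrains insulin signalling. Extracellular let-7b is also known as a ligand of the RNA sensor TLR7 in mouse neurons and microglia, through the motif GUUGUGU.

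The mature sequences are shown because the 9 members share the bases that choose targets and differ in a few bases behind them, which is also what a read must cover to be given to the right member. They are RefSeq sequences on GRCm38.p6, each 22 bases long, written 5′ to 3′ with the seed, bases 2 to 8, in capitals.
mmu-let-7a-5p: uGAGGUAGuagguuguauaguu
mmu-let-7b-5p: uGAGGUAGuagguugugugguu
mmu-let-7c-5p: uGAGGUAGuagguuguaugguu
mmu-let-7d-5p: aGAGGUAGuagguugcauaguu
mmu-let-7e-5p: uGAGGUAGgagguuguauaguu
mmu-let-7f-5p: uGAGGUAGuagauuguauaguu
mmu-let-7g-5p: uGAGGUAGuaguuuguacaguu
mmu-let-7i-5p: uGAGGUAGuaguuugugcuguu
mmu-miR-98-5p: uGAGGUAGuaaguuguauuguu

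All 9 members had the same seed, which was found in 11 of 1679 mature mouse miRNAs of the RefSeq table. The other carriers, let-7k and miR-1961, had no row under those names in the deposited table. With positions counted from 1 at the 5′ end and the base of let-7a-5p given first, let-7f-5p differed from let-7a-5p by G12A, let-7c-5p by A19G and let-7e-5p by U9G. let-7b-5p differed by A17G and A19G, and let-7d-5p by U1A and U16C. let-7g-5p differed by G12U and U18C, and miR-98-5p by G11A and A19U. let-7i-5p was the farthest from let-7a-5p, with G12U, A17G, U18C and A19U. The motif GUUGUGU, searched in the mature strand as written, occurred in let-7b-5p and let-7k, 0.119% of the 1679 mature sequences. How reads that match more than 1 member were counted is not given in the sources used here. Values of members that differ by 1 base are therefore less certain, above all those of let-7a-5p and let-7c-5p, which share their first 18 bases.

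The members derive from 12 precursors on 7 chromosomes. Mirlet7a-1 (chr13:48538179-48538272), Mirlet7f-1 (chr13:48537829-48537917) and Mirlet7d (chr13:48536012-48536114) lie on the minus strand within exons of the noncoding gene 6720427I07Rik. Mirlet7c-2 (chr15:85706603-85706697) and Mirlet7b (chr15:85707319-85707403) lie on the plus strand in exons of the noncoding gene Lncppara. Mirlet7f-2 (chrX:151912346-151912428) and Mir98 (chrX:151913214-151913321) lie in an intron of Huwe1, which encodes a ubiquitin ligase. Mirlet7g (chr9:106178840-106178927) lies in an intron of Wdr82, a subunit of histone methyltransferase complexes. Mirlet7i (chr10:122985640-122985724) lies on the minus strand in an exon of the transcribed pseudogene D630033A02Rik. The remaining precursors sit beside those of the miR-99, miR-100 and miR-125 families. These are Mirlet7c-1 (chr16:77599657-77599750) in an intron of Mir99ahg with Mir99a, Mirlet7e (chr17:17830352-17830444) in an intron of Spaca6 with Mir125a, and Mirlet7a-2 (chr9:41536716-41536811) with Mir100. Since let-7a-5p, let-7c-5p and let-7f-5p each come from 2 precursors, their counts cannot be assigned to a locus.

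The libraries held between 250807 and 338530 miRNA counts in the HFD plus L-NAME group and between 238434 and 420828 in the control group, which was 0.980 to 1.85% of the reads recovered from the deposited scaling. miR-1a-3p, the main miRNA of cardiac muscle, took 27.4 to 43.7% of miRNA counts in HFD plus L-NAME libraries and 21.1 to 29.8% in control libraries. The summed level of 4 cardiac muscle markers was 292883 to 474068 CPM (miRNA counts scaled to a common library total by the TMM method) in HFD plus L-NAME libraries and 246829 to 359449 CPM in control libraries, with all 4 detected. Most of this sum was miR-1a-3p, at 257770 to 443701 CPM in HFD plus L-NAME libraries and 199341 to 307302 CPM in control libraries. Another of the 4, miR-499-5p, was lower in the HFD plus L-NAME group. Its log2 difference was −0.60, with an adjusted p of 0.0049 by the DESeq2 Wald test, an alternative to the main test. In the main test, edgeR's quasi-likelihood test, the smallest adjusted p of all tested miRNAs was 0.172. The call of miR-499-5p therefore depended on the method. Single values of the remaining markers in this list are not given here. The summed level of 2 smooth muscle markers was 29556 to 40854 CPM in HFD plus L-NAME libraries and 42539 to 65483 CPM in control libraries. For 2 endothelial markers it was 40452 to 73476 CPM in HFD plus L-NAME libraries and 61554 to 84628 CPM in control libraries, and for 4 red blood cell markers 9292 to 26071 CPM in HFD plus L-NAME libraries and 17806 to 54016 CPM in control libraries. For 5 leukocyte markers the sum was 671 to 1029 CPM in HFD plus L-NAME libraries and 802 to 1503 CPM in control libraries. For 2 neuron markers it was 27.4 to 52.8 CPM and 10.7 to 47.0 CPM in the same order. The liver marker miR-122-5p had 121 counts in control 4 and at most 3 in any other library. The part of these marker shifts in the values of the family was not tested. In a mixed preparation a smaller number of vesicles of some type and less RNA per vesicle cannot be told apart. The labels do not say that each library came from its own mouse, and p-values here therefore refer to spread among libraries, which may be technical.

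The family as a whole took about the same share of vesicle miRNA in both groups, and its share varied more among HFD plus L-NAME libraries. The sum of the 9 guide strands was 10.8, 18.2, 14.5, 19.5 and 8.33% of miRNA counts in HFD plus L-NAME libraries 1 to 5. In control libraries 1 to 5 it was 11.6, 12.0, 15.8, 15.0 and 14.9%. HFD plus L-NAME libraries 2 and 4 were above every control library and libraries 1 and 5 below every control library, so that the controls lay inside the range of the other group. Means were 14.3 ± 4.75% in the HFD plus L-NAME group and 13.9 ± 1.89% in the control group (SD, n = 5 each). The highest share was 2.34 times the lowest in the HFD plus L-NAME group and 1.35 times the lowest in the control group. Counting error was far smaller than this spread, with exact (Clopper-Pearson) 95% intervals of 19.4 to 19.6% in HFD plus L-NAME library 4 and 8.22 to 8.44% in library 5; intervals cover counting error only.

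Taken as 1 feature, the family was the second most abundant entry after miR-1a-3p. The log2 difference of the family sum was 0.07 ± 0.24 (SE), for which no p is given. With miR-1a-3p left out of the total, the family made up 15.6, 28.1, 20.0, 29.0 and 14.8% of the rest in HFD plus L-NAME libraries and 14.8, 17.1, 21.9, 19.3 and 18.9% in control libraries. HFD plus L-NAME libraries 2 and 4 stayed the highest of the 10 by this measure, while library 1 was no longer below every control library. The means were 21.5 ± 6.76% in the HFD plus L-NAME group and 18.4 ± 2.64% in the control group (SD, n = 5 each), a difference of 3.08 percentage points, against 0.41 points with miR-1a-3p in the total. HFD plus L-NAME library 4 also had the most miRNA counts of its group (338530) and library 5 the fewest (250807). In the control group the deepest library, control 2 with 420828 counts, had a share of 12.0%, and the shallowest, control 5 with 238434 counts, a share of 14.9%. Over the 10 libraries, Pearson's r of the log2 family sum in CPM with log2 miRNA counts was 0.085, given with no p. The part of depth in the spread was not tested.

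Relative to all recovered reads, on the RPM scale, the family reached 1306.5, 2197, 1502, 3024 and 841 RPM in HFD plus L-NAME libraries and 2154, 2150, 2224, 2374 and 1460 RPM in control libraries. On this scale the means were 1774 ± 852 RPM in the HFD plus L-NAME group and 2073 ± 354 RPM in the control group (SD, n = 5 each). Here 4 of 5 control libraries stood close together, at 2150 to 2374 RPM. HFD plus L-NAME library 2 lay within that range, library 4 above it and libraries 1, 3 and 5 below it.

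**Figure D1:**
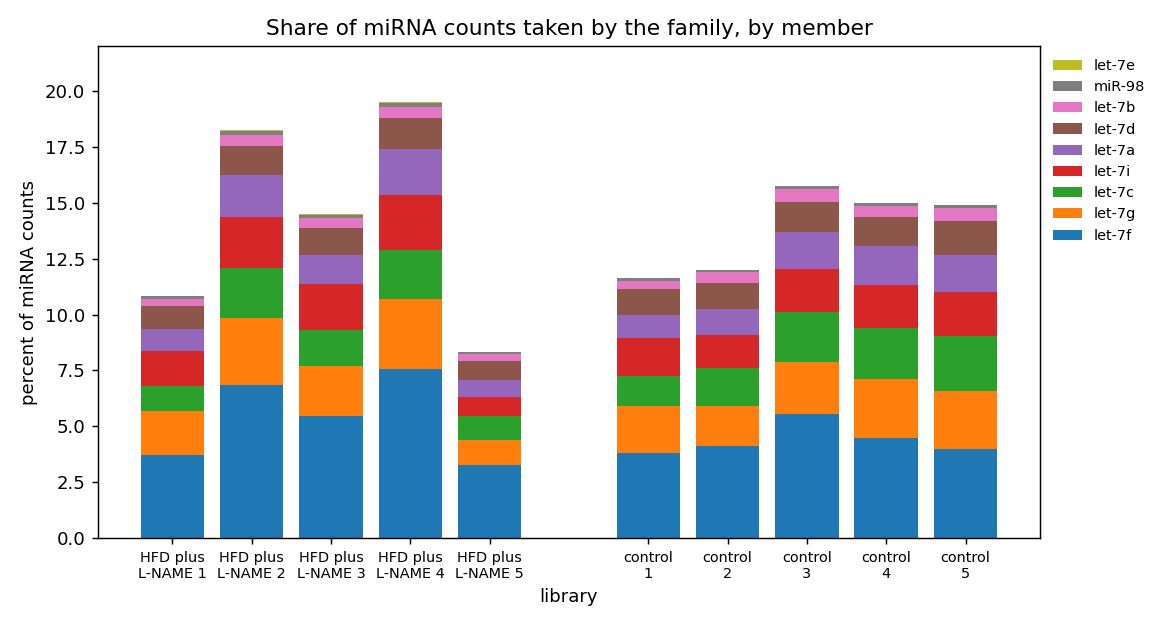
Percent of all miRNA counts (y axis) taken by the 9 guide strands in each library (x axis), stacked by member, with HFD plus L-NAME libraries on the left and control libraries on the right. Total height spans 8.33 to 19.5% in HFD plus L-NAME libraries and 11.6 to 15.8% in control libraries, and let-7f is the largest block in every bar.

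let-7f-5p was the most abundant guide strand of the family and the fifth most abundant miRNA by count. In HFD plus L-NAME libraries 1 to 5 it reached 34325, 78948, 51343, 77752 and 33199 CPM. In control libraries 1 to 5 it reached 35465, 41848, 60623, 43676 and 38701 CPM. Again HFD plus L-NAME libraries 2 and 4 were higher than every control and libraries 1 and 5 lower than every control. Its log2 difference, HFD plus L-NAME over control, was 0.32 ± 0.26 (SE), with an adjusted p of 0.633 by edgeR's quasi-likelihood test with Benjamini-Hochberg adjustment over 177 miRNAs.

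let-7g-5p and let-7i-5p, which share their first 16 bases, followed in abundance. let-7g-5p stood at 17715, 35057, 21252, 32383 and 11670 CPM in HFD plus L-NAME libraries and 19655, 18435, 25575, 25834 and 25160 CPM in control libraries. let-7i-5p stood at 14449, 26325, 19454, 25372 and 8740 CPM in HFD plus L-NAME libraries and 15773, 14873, 20948, 18794 and 18912 CPM in control libraries. Both repeated the order of let-7f-5p within the HFD plus L-NAME group, with library 5 the lowest for each. Their log2 differences were 0.04 ± 0.26 for let-7g-5p and 0.08 ± 0.26 for let-7i-5p (SE), with adjusted p of 0.949 and 0.893 by the same edgeR test. Both signs turned in the limma fit, with recovered reads as library size and when some single libraries were left out.

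let-7c-5p and let-7b-5p, made in part from 1 locus on chromosome 15, had lower means in the HFD plus L-NAME group. let-7c-5p stood at 10452, 25394, 14986, 22636 and 10495 CPM in HFD plus L-NAME libraries and 12526, 17464, 24426, 22181 and 23721 CPM in control libraries. let-7b-5p, the member with the TLR7 motif, stood at 2913, 5545, 4438, 4894 and 3108 CPM in HFD plus L-NAME libraries and 3574, 5196, 6613, 4793 and 5773 CPM in control libraries. The groups overlapped for both, with HFD plus L-NAME libraries 1 and 5 below every control library. The log2 differences were −0.26 ± 0.27 for let-7c-5p and −0.31 ± 0.22 for let-7b-5p (SE), with adjusted p of 0.760 and 0.531 by the edgeR quasi-likelihood test.

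miR-98-5p, which shares its X-linked host intron with Mirlet7f-2, had the largest difference of the family on the log2 scale. It stood at 1125, 2138, 1132, 1905 and 948 CPM in HFD plus L-NAME libraries and 1081, 826, 1125, 1176 and 1138 CPM in control libraries. HFD plus L-NAME libraries 2 and 4 lay above all controls, while the other 3 lay among them. Its log2 difference was 0.44 ± 0.24 (SE), with an adjusted p of 0.398 (0.0885 before adjustment) by the edgeR quasi-likelihood test.

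The other members were let-7a-5p, let-7d-5p and let-7e-5p. let-7a-5p ranged over 7630 to 21756 CPM in HFD plus L-NAME libraries and 9463 to 18152 CPM in control libraries. let-7d-5p ranged over 8740 to 15240 CPM in HFD plus L-NAME libraries and 10920 to 14716 CPM in control libraries. let-7e-5p, the least abundant member with 28 to 136 counts per library, ranged over 113 to 411 CPM in HFD plus L-NAME libraries and 199 to 376 CPM in control libraries. Their log2 differences were −0.02 ± 0.30 for let-7a-5p, −0.12 ± 0.19 for let-7d-5p and −0.14 ± 0.33 for let-7e-5p (SE), with adjusted p of 0.967, 0.821 and 0.878 by the edgeR quasi-likelihood test. The sign turned under other scalings for let-7a-5p and let-7d-5p, and when control 3 or control 4 was left out for let-7e-5p.

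Thus 4 members were higher and 5 lower in the HFD plus L-NAME group, and 0 of 9 passed an adjusted p of 0.05. The median log2 difference was −0.02 over the 9 members and −0.02 over all 177 tested miRNAs, of which 86 were higher and 91 lower. The same edgeR test called 0 of 177 miRNAs (0%) at an adjusted p of 0.05. At an unadjusted p under 0.05 it passed 28 of 177 (15.8%), and 0 of the 9 members. DESeq2 called 3 of 177 miRNAs (1.69%) at an adjusted p of 0.05, namely miR-125b-5p, miR-23a-3p and miR-499-5p, and 0 of the 9 members. The groups did not overlap for 7 of 177 tested miRNAs (3.95%) and for 0 of the 9 members. For all 9 members the SD of log2 CPM was greater in the HFD plus L-NAME group, from 0.41 against 0.33 for let-7b-5p to 0.66 against 0.20 for let-7i-5p. This difference in spread was not tested. How many of the 177 tested miRNAs had a greater SD in that group was not counted, so it is not shown as a trait of the family. The levels of the members were also correlated, and they are not 9 separate observations.

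**Figure D2:**
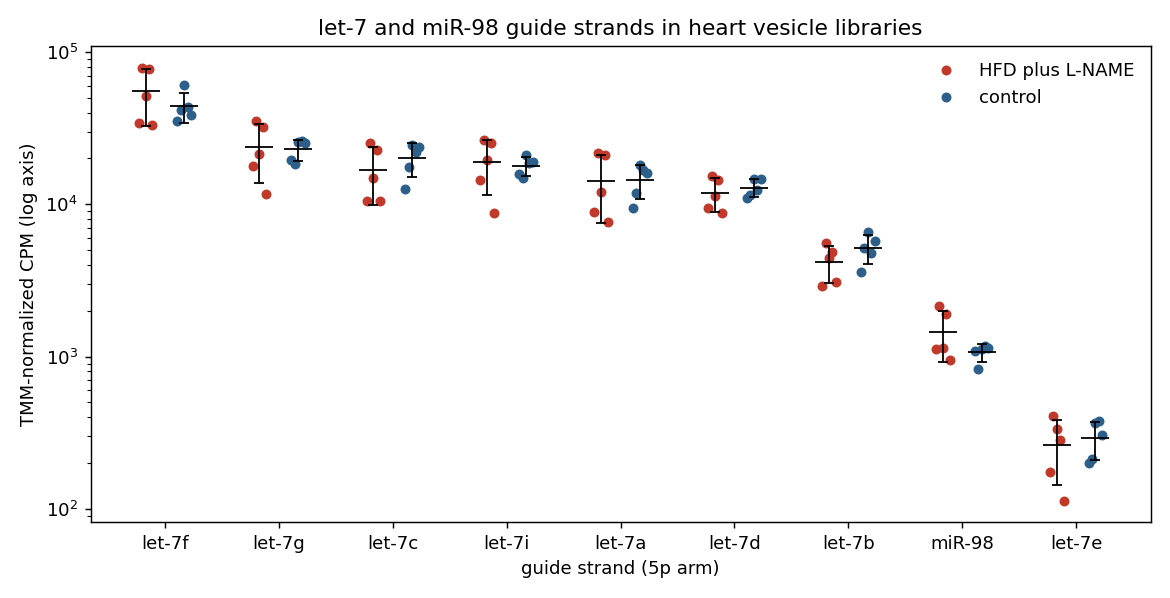
TMM-normalized CPM on a log axis (y) for each guide strand (x), ordered by mean level, with HFD plus L-NAME libraries left of control libraries; each point is a library, and bars give the mean and SD (n = 5 each). The groups overlap for all 9 members, and points spread more widely in the HFD plus L-NAME group.

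The order of the levels ran from let-7f-5p with 34.7% of the family's counts through let-7g-5p (16.4%), let-7i-5p (12.9%), let-7c-5p (12.9%), let-7a-5p (10.1%) and let-7d-5p (8.70%) to let-7b-5p (3.30%), miR-98-5p (0.877%) and let-7e-5p (0.194%). All 9 have the same length. Adaptor ligation is known to favour some sequences over others, so these shares are of reads and not of molecules. Among all miRNAs ranked by count, let-7f-5p was at place 5, the next 5 members lay between places 13 and 19, let-7b-5p was at 28, miR-98-5p at 48 and let-7e-5p at 89. In the middle of the order, let-7i-5p and let-7c-5p changed places between libraries, as did let-7a-5p and let-7d-5p, whereas let-7a-5p was below both let-7i-5p and let-7c-5p in every library. let-7g-5p was above let-7i-5p in every library, and let-7f-5p, let-7b-5p, miR-98-5p and let-7e-5p kept apart from the members beside them in every library.

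Within the family, let-7f-5p had a higher mean share in the HFD plus L-NAME group and let-7c-5p a lower mean share. let-7f-5p made up 34.5, 37.4, 37.7, 38.7 and 39.2% of the family's counts in HFD plus L-NAME libraries and 32.6, 34.2, 35.2, 29.9 and 26.8% in control libraries. The groups met only where control 3 exceeded HFD plus L-NAME library 1. The means were 37.5 ± 1.83% in the HFD plus L-NAME group and 31.7 ± 3.42% in the control group (SD, n = 5 each), a difference of 5.79 percentage points.

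let-7c-5p made up 10.5, 12.0, 11.0, 11.3 and 12.4% in HFD plus L-NAME libraries and 11.5, 14.3, 14.2, 15.2 and 16.4% in control libraries. Only control 1 fell into the range of the other group. let-7b-5p averaged 2.99 ± 0.494% in the HFD plus L-NAME group and 3.73 ± 0.432% in the control group, and miR-98-5p averaged 1.01 ± 0.125% in the HFD plus L-NAME group and 0.783 ± 0.136% in the control group (SD, n = 5 each). The remaining members moved by under 1 percentage point, with let-7g-5p at 15.99 ± 1.48% in the HFD plus L-NAME group and 16.6 ± 1.54% in the control group and let-7i-5p at 12.9 ± 1.69% in the HFD plus L-NAME group and 13.0 ± 0.968% in the control group. Shares of a common sum are not independent, and no p is given for them.

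Ratios between members need no library scaling. The ratio of let-7f-5p to let-7c-5p was 3.28, 3.11, 3.43, 3.43 and 3.16 in HFD plus L-NAME libraries and 2.83, 2.40, 2.48, 1.97 and 1.63 in control libraries. Every HFD plus L-NAME library was above every control library, and the means were 3.28 ± 0.148 in the HFD plus L-NAME group and 2.26 ± 0.467 in the control group (SD, n = 5 each). The ratio of let-7f-5p to let-7b-5p was 11.8, 14.2, 11.6, 15.9 and 10.7 in HFD plus L-NAME libraries and 9.92, 8.05, 9.17, 9.11 and 6.70 in control libraries. The ratio of miR-98-5p to let-7d-5p was 0.120, 0.140, 0.100, 0.131 and 0.108 in HFD plus L-NAME libraries and 0.0990, 0.0714, 0.0771, 0.0944 and 0.0773 in control libraries.

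These 3 ratios, which were singled out after their values were seen and are given with no test, were the ones whose groups did not overlap among 36 member pairs (8.33%). Over all 15576 pairs of tested miRNAs the ratios of 426 pairs (2.73%) did not overlap. That background used log2 CPM with a prior count of 2, whereas the member ratios used raw counts. let-7f-5p and miR-98-5p, the members with a precursor in Huwe1, were on the higher side of these ratios, and let-7b-5p, let-7c-5p and let-7d-5p on the lower side. let-7f-5p also has a precursor beside Mirlet7d on chromosome 13, so its counts cannot be assigned to Huwe1. In the printed sequences let-7f-5p and let-7c-5p differ at positions 12 and 19. The ratio of let-7g-5p to let-7i-5p, by contrast, was 1.25 ± 0.100 in the HFD plus L-NAME group and 1.28 ± 0.0666 in the control group (SD, n = 5 each), and the groups overlapped.

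**Figure D3:**
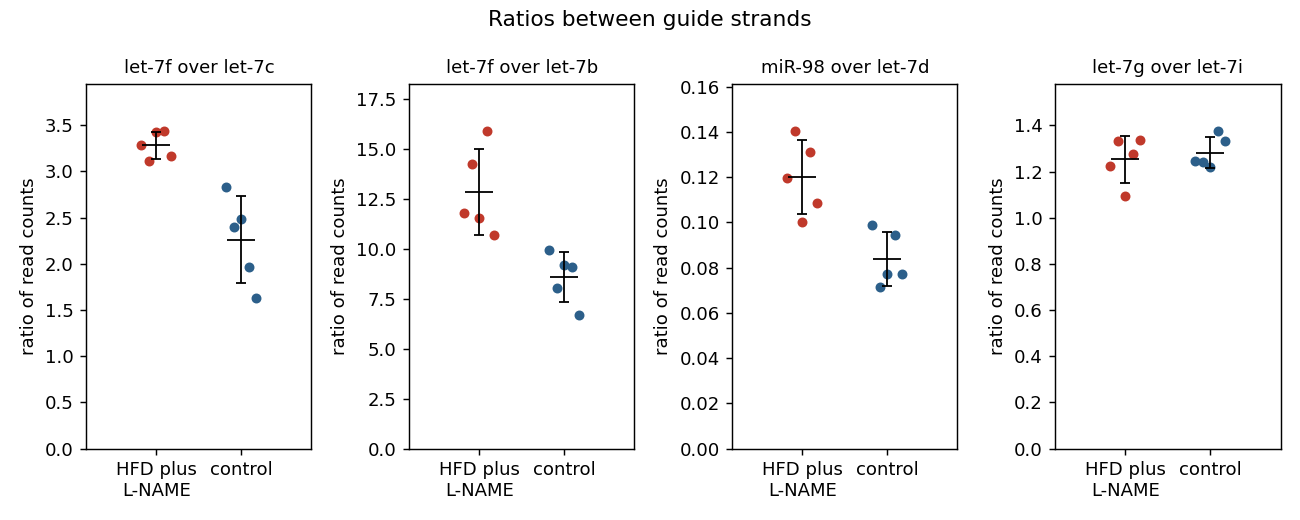
Ratio of raw read counts between guide strands (y axes, each from 0) by group (x axes), with HFD plus L-NAME left of control; points are libraries, and bars give the mean and SD (n = 5 each). In the first 3 panels every HFD plus L-NAME library is above every control library, while the ratio of let-7g to let-7i overlaps between groups.

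Levels of the guide strands were correlated with each other across libraries. Over the 36 member pairs, Pearson's r of log2 CPM across the 10 libraries had a median of 0.84, against a median of 0.00 over all 15576 pairs of tested miRNAs. Of the member pairs, 31 (86.1%) had an r above 0.7, which was the case for 486 of all pairs (3.12%). The 95th percentile of r over all pairs was 0.64. With each group's mean removed, the median r of member pairs was 0.89 and the lowest 0.62. These values pool both groups, and the HFD plus L-NAME libraries, with the larger SD for all 9 members, weigh more in them; r within a group of 5 is not given. Leaving out the 2 libraries farthest from the median of a pair's first member, in most pairs HFD plus L-NAME 1 and 5, gave a median of 0.70 and a lowest r of 0.12. TMM scaling was common to all miRNAs of a library, and sequence similarity among members means that misassigned reads would be shared within the family.

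The closest pair was let-7g-5p with let-7i-5p, with r = 0.98 and rho = 0.92 over 10 libraries. The permutation p of this r was 1e-05, two-sided and the smallest that the resamples can give, and its adjusted value over all 15576 pairs was 0.0779. Without the 2 farthest libraries its r was 0.94. let-7c-5p with let-7d-5p had r = 0.96 and rho = 0.98, with the same permutation p of 1e-05 and adjusted value of 0.0779, and r was 0.92 without the 2 farthest libraries. Their precursors lie on different chromosomes. None of the 15576 pairs (0%) reached an adjusted permutation p of 0.05. Pairs at the floor of 1e-05 had an adjusted value of 0.0779, so the number of resamples limited this count.

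Over all 10 libraries miR-98-5p had the lowest correlations with the others. Its 8 pairs had a median r of 0.67, and the 28 pairs without it a median of 0.86 and a lowest r of 0.64. With let-7b-5p its r was 0.29 and its rho 0.28 (permutation p of 0.431, adjusted 0.858). With each group's mean removed, r was 0.62 for this pair and reached 0.93 for miR-98-5p with let-7g-5p. With let-7f-5p, its neighbour at the Huwe1 locus, r was 0.82 and rho 0.66 (permutation p of 0.0057, adjusted 0.349). For this pair r was 0.81 with each group's mean removed. It fell to 0.26 without HFD plus L-NAME 2 and 4, the libraries farthest from the median of let-7f-5p, so the value over all 10 depended on them. let-7b-5p with let-7c-5p, neighbours at Lncppara, had r = 0.94 and rho = 0.93 (permutation p of 0.00011, adjusted 0.132), and r was 0.85 without the 2 farthest libraries.

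Likeness in sequence and likeness in level did not go together in a simple way. The 4 pairs that differ by 1 base had a median r of 0.90, the 10 pairs with 2 differences 0.83, the 11 pairs with 3 differences 0.80 and the 9 pairs with 4 differences 0.81. The pair with 6 differences, let-7d-5p and let-7i-5p, had an r of 0.88. let-7a-5p followed the sum of the other 8 members most closely, with r = 0.97, and miR-98-5p least closely, with r = 0.78, as a description over the 10 libraries.

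**Figure D4:**
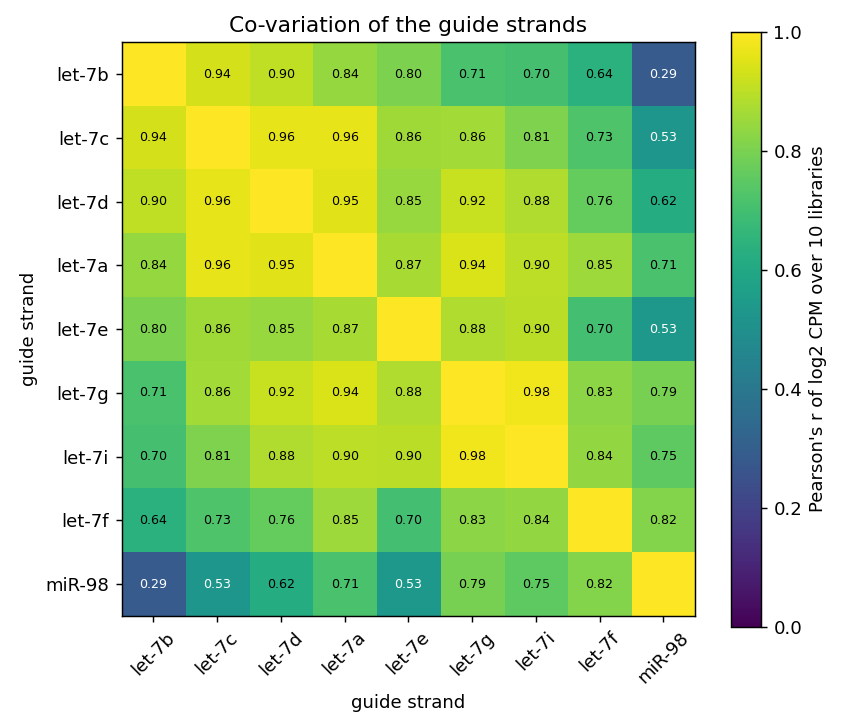
Heat map of Pearson's r of log2 CPM across all 10 libraries for each pair of guide strands, with colour from 0 to 1 and the value in each cell. Most cells lie above 0.7, let-7g with let-7i is the highest at 0.98, and miR-98 with let-7b the lowest at 0.29.

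Outside the family, the miRNAs whose log2 level was most like the family sum were a predicted miRNA without a registered name (r = 0.69), miR-127-3p of the imprinted Dlk1-Dio3 region (0.65), the endothelial miR-126a-3p (0.64), the Hox-cluster miR-10a-5p (0.64) and miR-221-3p (0.60). These were the highest r among 168 tested miRNAs outside the family over the 10 libraries, and are given as a ranking with no p. All 9 members exceeded the first of them, with r from 0.78 to 0.98 to the sum that contains them. For miR-1a-3p the value was 0.09. miR-126a-3p reached 49974, 71492, 65474, 52816 and 38358 CPM in HFD plus L-NAME libraries and 64023, 60372, 82914, 69967 and 70687 CPM in control libraries. It was lowest in HFD plus L-NAME library 5, like the members other than let-7b-5p, let-7c-5p and miR-98-5p, but HFD plus L-NAME library 4 was not among its high libraries.

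Some let-7 precursors are transcribed with miRNAs of the miR-99, miR-100 and miR-125 families, which carry other seeds. miR-125b-5p, known for repressing genes of the p53 pathway, stood at 643, 1089, 848, 1138 and 1090 CPM in HFD plus L-NAME libraries and 1214, 1925, 1332, 1652 and 2126 CPM in control libraries. Every HFD plus L-NAME library was below every control library. Groups that did not overlap, in either direction, were seen for 3.95% of all tested miRNAs. Its log2 difference was −0.78 ± 0.22 (SE), with an adjusted p of 0.172 by the edgeR quasi-likelihood test and of 0.0362 by DESeq2.

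miR-99a-5p, which shares a host transcript with Mirlet7c-1, averaged 30387 ± 2288 CPM in the HFD plus L-NAME group and 39511 ± 7533 CPM in the control group (SD, n = 5 each), with a log2 difference of −0.38 ± 0.16 (SE). For miR-99b-5p the log2 difference was −0.56 ± 0.24 and for miR-100-5p −0.17 ± 0.18 (SE). The adjusted p was 0.232 for miR-99a-5p, 0.232 for miR-99b-5p and 0.760 for miR-100-5p by the edgeR quasi-likelihood test. miR-125a-5p, beside Mirlet7e, was not tested, with counts of 2, 1, 1, 0 and 2 in HFD plus L-NAME libraries and 4, 11, 3, 8 and 10 in control libraries. All 4 partners that were tested had lower means in the HFD plus L-NAME group, and 0 passed the adjusted edgeR threshold.

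The correlations of let-7 members with these partners were computed for 4 pairs. Across the 10 libraries r was 0.57 and rho 0.41 for let-7c-5p with miR-125b-5p (permutation p of 0.0909, adjusted 0.599), and r was 0.28 without the 2 farthest libraries. It was 0.47 and rho 0.32 for let-7c-5p with miR-99a-5p (permutation p of 0.173, adjusted 0.708). For let-7a-5p with miR-100-5p r was 0.08 and rho 0.05 (permutation p of 0.832, adjusted 0.973), and for let-7e-5p with miR-99b-5p r was 0.30 and rho 0.38 (permutation p of 0.402, adjusted 0.850). Without the 2 farthest libraries the r of these 3 pairs were 0.34, −0.03 and 0.21. No test compared them with the pairs of members, whose r ranged over 0.29 to 0.98. The mature let-7c-5p and let-7a-5p also come from precursors outside these clusters, so the pairs do not isolate the shared transcripts.

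The opposite arms of the precursors, which are mostly discarded when the guide is loaded, were rare. The 11 rows for 3p arms held 44 to 73 counts per library in the HFD plus L-NAME group and 58 to 75 in the control group. That was 0.157 ± 0.0791% of 5p plus 3p counts in the HFD plus L-NAME group and 0.151 ± 0.0311% in the control group (SD, n = 5 each). let-7d-3p, the row with the most counts, had 12, 13, 10, 14 and 6 counts in HFD plus L-NAME libraries and 28, 25, 28, 14 and 8 in control libraries. Its groups overlapped, and its log2 difference was −0.61 ± 0.38 (SE), with an adjusted p of 0.426 by the edgeR quasi-likelihood test.

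The rows with the next most counts, let-7a-1-3p and let-7c-2-3p, have the same mature sequence. It is shown because reads of it cannot be told apart by locus. No base is in capitals, since the strands do not differ.
mmu-let-7a-1-3p: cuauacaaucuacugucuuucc
mmu-let-7c-2-3p: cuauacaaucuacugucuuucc

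The row for let-7a-1-3p held 25, 0, 21, 39 and 1 counts in HFD plus L-NAME libraries and 0, 0, 17, 37 and 0 in control libraries. The row for let-7c-2-3p held 2, 18, 2, 0 and 37 counts in HFD plus L-NAME libraries and 27, 29, 1, 0 and 36 in control libraries. In each library almost all counts stood under a single name, and which name it was changed between libraries of the same group. Their sum was 27, 18, 23, 39 and 38 counts in HFD plus L-NAME libraries and 27, 29, 18, 37 and 36 in control libraries, and the groups overlapped. Over all libraries this sum was 292 counts, more than the 158 of let-7d-3p. Neither of the rows with the identical sequence is read here as a measure of its locus.

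**Figure D5:**
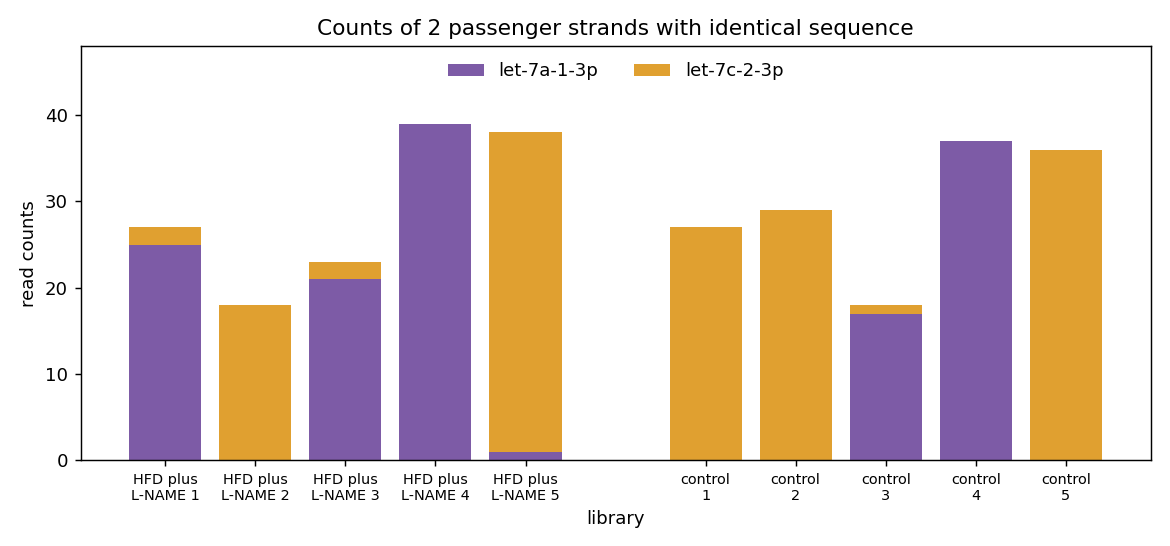
Read counts (y axis) in each library (x axis) of the identical strands let-7a-1-3p and let-7c-2-3p, stacked, with HFD plus L-NAME libraries on the left and control libraries on the right. The sum spans 18 to 39 counts in the HFD plus L-NAME group and 18 to 37 in the control group, while the name that holds the counts switches between libraries.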

How the data were processed

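Per the labels, adaptors were ligated to small RNA for library preparation, and per the submitters' processing notes the build was GRCm38.p6. Not given in the sources used here are the aligner and how multi-matching reads were counted. The authors deposited a raw read count per miRNA and library and a second value, taken to be RPM, since each count divided by its value gave 1 number per library, the recovered read total. The 10 libraries were grouped by the treatment label, and no batch is named. No pair of libraries was a copy of another, with chi-square per degree of freedom between 20.2 and 214. With counts of 0, the floor of 3 counts is 7.13 to 12.6 CPM of miRNA counts.

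Counts were tested with edgeR 4.0.16 in R 4.3.3 (TMM, filterByExpr at its defaults, quasi-likelihood test with robust fitting, Benjamini-Hochberg adjustment over 177 miRNAs, threshold 0.05). SE is the log2 difference divided by the square root of F. DESeq2 1.42.0 and limma 3.58.1 served as alternatives, beside RLE factors, no filter, read totals as library size, removal of miR-1a-3p and leaving out each library. Correlations used log2 CPM with a prior count of 2 and two-sided permutation tests of 100000 resamples (SciPy 1.17.1), adjusted over 15576 pairs. The edgeR fit was tested on simulated counts. Named miRNAs were the 9 members, 5 nearest outside the family, 3 leading 3p arms, 5 neighbours in precursor clusters and miR-1a-3p. Members and lists were chosen with earlier results of these data known.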

Additional observations from a re-analysis of the deposited data

Results flagged for a closer look

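In groups of 5 libraries, a value was set apart when its gap to the nearest other library, divided by the range of the group, exceeded Dixon's critical value of 0.71. This was so for 2 of 84 groups examined, and chance gives about 1 in 20 groups. miR-98-5p was low in control 2, at 825.62 CPM, with the other controls between 1080.5 and 1176.18 CPM and a gap of 0.727. The family sum relative to recovered reads was low in control 5, at 1460.4 RPM, with the other controls between 2150 and 2374 RPM and a gap of 0.756. Control 5 was not set apart in its family share of miRNA counts, which was 14.9%.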

How the results depend on the processing

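No paired analysis was possible because the labels give no replicate numbers that the groups share. No guide strand passed an adjusted p of 0.05 in any alternative run. Over all miRNAs, DESeq2 called 3 and edgeR without the filter 1, and leaving out a library gave 0 to 1, with 1 call each without control 1 (miR-148a-3p) and without control 2 (a predicted miRNA). let-7b-5p and let-7c-5p stayed lower and let-7f-5p and miR-98-5p higher in every alternative, over −0.62 to −0.08, −0.54 to −0.04, 0.01 to 0.59 and 0.11 to 0.59. At an unadjusted p under 0.05 stood let-7f-5p without the filter or control 3, miR-98-5p without the filter, miR-1a-3p or control 4, and let-7b-5p with read totals. The sign turned for let-7a-5p with DESeq2 (0.0024), RLE factors (0.0025), no filter (0.039) and miR-1a-3p removed (0.12), for let-7g-5p with limma (−0.054) and read totals (−0.26), for let-7i-5p with limma (−0.018) and read totals (−0.22), and for let-7d-5p with miR-1a-3p removed (0.020). The cause was not tested. Read totals moved the median of all miRNAs to −0.37, removal of miR-1a-3p to 0.12 and no filter to 0.11. Leaving out each library, log2 differences ranged over −0.21 to 0.21 for let-7a-5p, −0.20 to 0.060 for let-7d-5p, −0.32 to 0.085 for let-7e-5p, −0.13 to 0.21 for let-7g-5p and −0.055 to 0.27 for let-7i-5p. The difference in family share, 0.41 percentage points, became −298 on the RPM scale and −0.89 to 1.90 points without single libraries. The difference in the let-7f-5p share was 4.55 to 6.64 points without single libraries, that in its ratio to let-7c-5p 0.86 to 1.16, and the median r 0.81 to 0.87. The last 2 sets of left-out libraries were added after seeing the data.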
